A study of Mus musculus with 135 samples.

Results

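The 90 genes described here encode the proteins of the cytosolic ribosome, out of 53715 genes in the oocyte count tables. They were chosen by symbol: Rpl or Rps followed by a number, with the endings a, x or l and a further digit allowed, together with Rplp0, Rplp1, Rplp2 and Rpsa. Symbols marked as pseudogenes (-ps) and the Rps6k kinases were left out. Of the 90 members, 54 belong to the large subunit and 36 to the small subunit. Because the choice was by symbol, 6 genes annotated as processed pseudogenes are among them (Rpl32l, Rpl6l, Rps12l1, Rps3a2, Rps3a3 and Rps4l). The germ cell table holds 86 members, 53 large and 33 small, among 19004 genes.

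RNA was sequenced from single ovulated oocytes arrested at metaphase II and from purified primordial germ cells, the embryonic precursors of oocytes and sperm, of C57BL6/129 mice. The females were wild type (WT), Tet1 knockout (Tet1KO) or Tet2 knockout (Tet2KO). Tet1 and Tet2 encode enzymes that oxidise 5-methylcytosine in DNA. Young females were aged 2 to 4 months and old females 10 to 12 months. Oocytes that share a title stem were treated as 1 set, named by that stem, and the set was the replicate; lettered stems are shortened to their last part. Every oocyte with a 3-digit stem has 2 entries in the labels. Except for Old_WT_365_1, the entry whose age and genotype match the title was used. The other entry of Old_WT_365_1 repeats its title, and the first listed was used. Which entries are right was not checked, and comparisons with these sets, old WT against young WT among them, rest on that choice. Young WT comprised set Young_WT__246 (14 oocytes) and sets T148, T211 and T231 (8 each), young Tet1KO sets Young_Tet1-/-_201 (7) and T146 (8), and young Tet2KO sets T213 and T214 (8 each). Old WT comprised sets Old_WT_247 (7 oocytes) and Old_WT_365 (5), old Tet1KO sets Old_Tet1-/-_209 (5) and Old_Tet1-/-_315 (1), and old Tet2KO the single set S161 (7). Germ cells at stage E13.5 gave 1 WT and 1 Tet2KO library, each from 4 to 6 embryos. The labels do not tie a set to an animal, so p-values measure only the spread between sets, and this spread may be technical.

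The ribosome is built of a small subunit, which reads the message, and a large subunit, which joins the amino acids, and each holds ribosomal RNA and a fixed inventory of proteins. In most cells the messages of these proteins are among the most abundant, and many begin with a run of pyrimidines, the 5' terminal oligopyrimidine tract, through which mTOR and the RNA-binding protein Larp1 regulate their translation. A fully grown oocyte no longer transcribes: it lives on stored messages, many of which are translated or degraded as it matures. Ribosomal protein messages have also been copied back into the genome many times, which leaves processed pseudogenes nearly identical to the parent gene.

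That likeness limits what a read can be assigned to. Of the 50-base words in a member's protein-coding transcripts, a median of 64.2% occurred in no other annotated gene, with a range from 4.91% to 100%. Pairs of sequences are given because results turn on them. Each is 60 bases of coding sequence, or the matching bases of the copy, read 5' to 3' on the gene's own strand from GENCODE transcripts on GRCm38, and capitals mark the bases that differ within the pair.
Rps27 (chr3:90213239-90213298, minus strand): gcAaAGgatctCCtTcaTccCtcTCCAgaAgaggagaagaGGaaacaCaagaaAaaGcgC
Rps27l (chr9:66946834-66946893, plus strand): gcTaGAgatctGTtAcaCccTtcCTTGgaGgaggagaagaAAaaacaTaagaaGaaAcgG
Rpl34 (chr3:130729055-130729114, minus strand): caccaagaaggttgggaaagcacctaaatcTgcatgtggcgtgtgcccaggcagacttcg
Rpl34-ps1 (chr6:71124711-71124770, plus strand): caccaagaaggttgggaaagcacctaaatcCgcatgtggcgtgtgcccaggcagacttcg
Rpl30 (chr15:34442677-34442736, minus strand): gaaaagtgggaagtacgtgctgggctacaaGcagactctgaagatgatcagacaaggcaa
Gm12191 (chr11:49678933-49678992, minus strand): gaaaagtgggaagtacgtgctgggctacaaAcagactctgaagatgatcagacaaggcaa
Rpl37 (chr15:5118567-5118626, plus strand): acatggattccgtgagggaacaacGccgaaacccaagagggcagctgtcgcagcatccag
Rpl37rt (chr5:115103238-115103297, minus strand): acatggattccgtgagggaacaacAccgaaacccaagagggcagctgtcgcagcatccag
Rpl22l1 (chr3:28806742-28806801, plus strand): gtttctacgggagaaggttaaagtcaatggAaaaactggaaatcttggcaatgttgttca
Gm15421 (chr5:22528523-22528582, minus strand): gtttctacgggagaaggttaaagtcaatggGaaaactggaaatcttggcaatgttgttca
The paralogs Rps27 and Rps27l, both zinc-finger proteins of the small subunit, differ at 19 of these 60 bases and shared 173 of 226 aligned coding bases (76.5%), so their reads can be told from each other. Rps27 has copies of its own: 53.8% of its 50-base words occurred in no other gene, and Rps27rt shared the most. For Rps27l that share was 83.8%. Rpl34 and Rpl34-ps1 differed at 2 of 351 aligned bases, Rpl30 and Gm12191 at 1 of 345, Rpl37 and Rpl37rt at 1 of 291, and Rpl22l1 and Gm15421 at 1 of 347. The authors' counting options allowed reads with more than one alignment or more than one overlapping gene, per the file headers. A mapping quality of at least 30 was also required, so reads below it were not counted. How many reads of members with copies were lost to that minimum is not known here. The copies and pairs named here were chosen after their values were seen.

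A few start sites show the pyrimidine tract. RefSeq start sites (GRCm38.p6) were found for 65 of the 90 members. The windows of 30 bases below are centred on the annotated start, and capitals mark the longest run of C and T.
Rps27 (chr3:90213634-90213663, minus strand): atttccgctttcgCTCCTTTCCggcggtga
Rpl38 (chr11:114668565-114668594, plus strand): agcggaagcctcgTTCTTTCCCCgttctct
Rps26 (chr10:128626492-128626521, minus strand): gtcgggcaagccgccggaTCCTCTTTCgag
An annotated first base of C followed by at least 4 pyrimidines was present in 21.5% of the 65 members, 19.5% of the large and 25% of the small subunit members, against 3.01% of 27025 genes. Rps27 and Rpl38 have one, whereas in Rps26 the run of 9 pyrimidines begins after the annotated start. A run of at least 8 pyrimidines lay within the 30-base window of 43.1% of members and of 13.9% of all genes. In the longer promoter windows, CCGGAAG on either strand was present in 40% of members and 9.93% of all genes, AAGATGGC in 9.23% and 3.19%, GGGCGG in 61.5% and 38.2%, and TATAAA in 12.3% and 15.7%. These are matches of letters and say nothing about binding.

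Total counts per oocyte ranged from 2354503 to 12472307 (median 3985321). The oocyte markers (12 genes, Zp3 and Gdf9 among them) summed to between 11145 and 23436 CPM (counts scaled to the same library total) in each set. Of 15 cumulus and granulosa markers, Col1a2 was at 0 in every set, and the sum was at most 72.2 CPM. Macrophage and blood markers summed to at most 19.3 CPM in every set but S161, where they reached 256.6 CPM, with 1587 CPM in the single oocyte S161_6. That oocyte also had the highest member level of its set, 2364 CPM against 1046 to 1321 CPM in the other 6, and without it the summed level of S161 fell from 1388 to 1219.7 CPM. The part of the macrophage transcripts in this was not tested.

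Ribosomal protein messages were scarce in ovulated oocytes. Summed over all members, they made up 0.123% ± 0.0132 of all gene counts in young WT (mean ± SD over the medians of 4 sets), and 0.121% ± 0.0136 without the 3 oocytes described below. Young Tet1KO had 0.110% ± 0.0145 (n = 2) and young Tet2KO 0.141% ± 0.00521 (n = 2). Old WT had 0.141% ± 0.0117 (n = 2), old Tet1KO 0.115% ± 0.00449 (n = 2) and the single old Tet2KO set 0.128%. Ranges of the set medians overlapped between young WT (0.104% to 0.132%) and young Tet1KO (0.0999% to 0.120%). Both young Tet2KO sets (0.138% and 0.145%) lay above every young WT set. So did both old WT sets (0.133% and 0.150%), Old_WT_247 by little. On counts summed per set with all oocytes, Young_WT__246 stood at 0.246%, above T213 (0.149%), T214 (0.143%), Old_WT_247 (0.131%) and Old_WT_365 (0.161%). Values are relative to the library total, so fewer ribosomal protein messages per oocyte cannot be told apart from more of other messages.

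**Figure D1:**
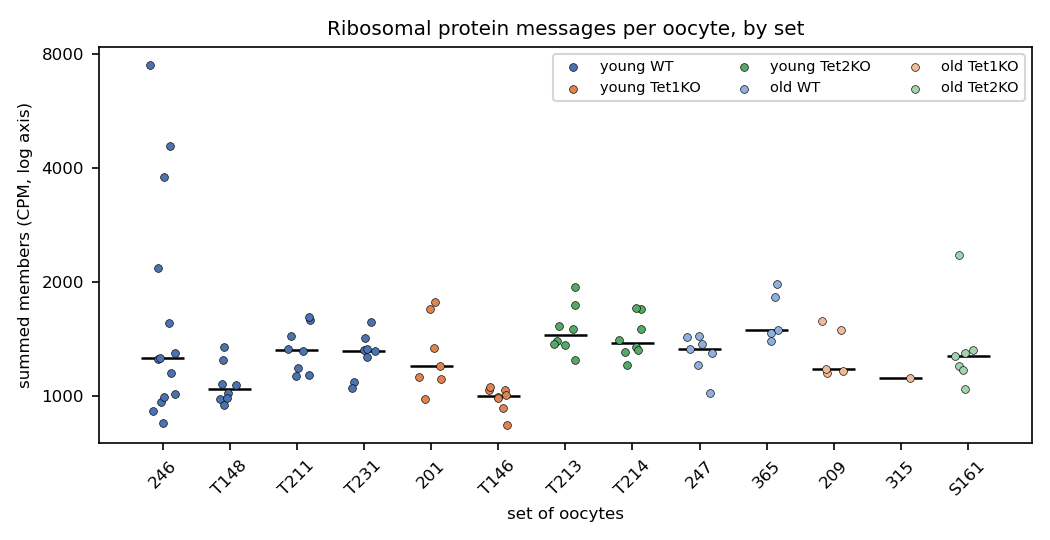
Summed CPM of the 90 members in each of 94 single oocytes (points, log axis) by set, each set labelled by the last part of its name and coloured by group; bars are set medians. The 3 oocytes Young_WT__246_10, Young_WT__246_11 and Young_WT__246_15 stand above all others, at 3795, 7488 and 4571 CPM, and the other 91 lie between 837 and 2364 CPM.

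Large and small subunit members were about equal in summed counts, with Rps27l a large part of the small subunit sum. Rps27l held 203 of 463 CPM in T146 and 404.7 of 1196 CPM in Young_WT__246. Per length in young WT, the large subunit held 43.5% of the members' total, and 62.5% without Rps27l. The ratio of large to small subunit counts per set lay between 0.689 in set Old_Tet1-/-_315 and 1.14 in set T146. Within young WT it was 1.06, 1.07, 0.901 and 0.803 in sets Young_WT__246, T148, T211 and T231. Young Tet1KO sets had 1.08 and 1.14, young Tet2KO sets 0.917 and 0.974, old WT sets 0.982 and 1.10 and the old Tet2KO set 0.913. The WT sets of both ages thus spanned 0.803 to 1.10, and 2 of the 7 knockout sets lay outside this span, T146 and Old_Tet1-/-_315, the latter being 1 oocyte.

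Oocytes Young_WT__246_10, Young_WT__246_11 and Young_WT__246_15 stood apart and bear on every comparison with young WT, so results are given with and without them. Their summed level was 3795, 7488 and 4571 CPM, against 846 to 2185 CPM in the other 11 oocytes of the set. The 3 were set apart by this same level, so members standing higher in them than other genes follows from that choice. In 59 of 90 members all 3 were above those 11 oocytes, and in 30 members above all 91 others. No member was lower in all 3. Among the 72 members with a mean of at least 1 CPM in the other 11, the fold ran from 1.46 to 36.3 with a median of 5.45, and it was 5.46 for 41 large and 5.21 for 31 small subunit members. All 3 lay above the 11 for 54 of these 72 members and for 12.5% of 12730 genes of the same minimum, whose median fold was 0.944. All 3 lay above all 91 others for 30 of the 72 members and for 4.61% of those genes. These counts describe the 3 oocytes and are not a test.

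The rise was not even across members. Rps27l, the most abundant member, was at 729, 671 and 1043 CPM in the 3 oocytes against a mean of 265 CPM in the other 11 (3.07-fold). Rps26, a protein beside the path by which the message leaves the small subunit, was at 120.3, 256 and 177 CPM against 37.4 CPM. Rplp0, the base of the stalk that recruits elongation factors, was at 75.2, 64.5 and 69.6 CPM against 42.3 CPM (1.65-fold), and the 3 oocytes overlapped the others. Some members were high in Young_WT__246_11 only: Rps27 stood at 147 CPM there and at 1.54 and 0.767 CPM in Young_WT__246_10 and Young_WT__246_15, Rpl36al at 144 against 7.17 and 10.5 CPM, and Rpl22l1 at 18 against 0.171 and 0 CPM. Rpl39, a protein of the exit tunnel, was at 130.2 CPM in Young_WT__246_11, 9.21 CPM in Young_WT__246_10 and 8.82 CPM in Young_WT__246_15. These examples were chosen after their values were seen. The 3 oocytes had 18603, 20073 and 18209 detected genes against 16615 to 17773 in the rest of the set. Their cumulus markers (38, 38.8 and 24.9 CPM) lay within the range of the other 91 oocytes (17.6 to 97.1) and of the other 11 (19.2 to 73.4). The only single cumulus marker above all 11 in all 3 was Nr5a2 (20.3, 22.2 and 17.1 CPM against 4.81 to 15.3). Their macrophage markers summed to 19.5, 16.7 and 14 CPM. The range of the other 91 (3.72 to 1587) is set at its top by S161_6. In the other 11 it was 7.93 to 18.3 CPM, so Young_WT__246_10 lay above all 11. The part of depth and of gene detection in the rise was not tested.

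Levels per length differed widely between members. As RPKM, the CPM divided by the gene length of the count tables in kilobases, Rps27l stood at 343 ± 105 over the 4 young WT sets, followed by Rps2 at 51.9 ± 21.9, Rpl17 at 50.5 ± 14.7, Rpl32 at 43.8 ± 30.3 and Rpl41 at 36.2 ± 38.5 (mean ± SD). The spread of the 4 members after Rps27l overlapped, so their order is not resolved. With coding lengths in place of gene lengths the first 5 were Rps27l, Rpl41, Rps15a, Rplp2 and Rps29, so only Rps27l and Rpl41 were shared. The lowest detected members were Rpl3l at 0.00614 RPKM, Rpl3 at 0.0618 RPKM and Rpl9 at 0.0668 RPKM. Rpl3, a protein next to the catalytic centre of the large subunit, was detected in 47 of 94 oocytes, and its muscle paralog Rpl3l in 2. Rps27l alone made up 30.4% of the summed member RPKM of the 86 members found in both tables.

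Paralogs stood at unequal levels, most clearly Rps27l, at 343 ± 105 RPKM in young WT, and Rps27, at 5.10 ± 9.69 RPKM. Rps27l stood at 404.7, 210.2, 260.6 and 243 CPM in the young WT sets Young_WT__246, T148, T211 and T231, and at 203 to 368 CPM in the other 9 sets. Rps27 stood at 20.5, 0.128, 0.277 and 0.381 CPM in the same 4 sets and at 0.187 to 3.36 CPM in the rest, so the groups did not separate and set Young_WT__246 alone was high. Whether reads of Rps27 were lost or counted at copies such as Rps27rt was not tested. Per length in young WT, Rpl39l, a germline paralog of the tunnel protein Rpl39, had 11.9 ± 5.27 RPKM and Rpl39 had 4.05 ± 6.38 RPKM. The X-linked Rpl10, which joins the large subunit late in its assembly, had 14.9 ± 3.67 RPKM, and its autosomal retrogene Rpl10l had 3.17 ± 1.83 RPKM. Rpl22, an RNA-binding protein, had 5.33 ± 0.837 RPKM and Rpl22l1 had 0.440 ± 0.612 RPKM. Rpl36a and Rpl36al had 1.62 ± 2.28 and 5.75 ± 7.49 RPKM, with set Young_WT__246 high for both (8.33 and 22.9 CPM) and the other 12 sets at 0.364 to 1.81 and 2.01 to 4.51 CPM. For Rpl7 and Rpl7l1 the values were 0.288 ± 0.199 and 0.524 ± 0.110 RPKM. Within a set, the order of a pair was steadier than these SD show: per length, Rps27l, Rpl39l and Rpl36al were above their partners in all 13 sets, and Rpl10 and Rpl22 above theirs in all 13. Rpl7l1 was above Rpl7 in 10 of 13 sets. These orders are of assigned counts, and the higher partner mostly had a larger share of words found in no other gene. That share was 77.9% for Rpl36al and 14.5% for Rpl36a, 92.5% for Rpl7l1 and 50.7% for Rpl7. It was 94.8% for Rpl22 and 41.1% for Rpl22l1, whose copy Gm15421 was counted higher than Rpl22l1 in every set. For Rpl10 (26.3%) and Rpl10l (92.4%) the reverse held. Whether read assignment sets the order of any pair was not tested.

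Levels also differed between sets. Among the 30 members with a mean of at least 10 CPM, the highest set exceeded the lowest by a median of 3.26-fold, against 2.33-fold over 6945 genes of the same minimum. The medians were 2.21-fold and 2.30-fold without the 3 oocytes of set Young_WT__246. The ratio was over 3-fold for 16 of the 30 members and for 29.7% of those genes, and for 9 members and 29.1% of genes without the 3 oocytes. Rpl41, a very short peptide between the subunits, varied most (29.6-fold, 24.4-fold without them): it stood at 104.9, 43.6, 17.1 and 3.54 CPM in the young WT sets, at 63 and 27.4 CPM in young Tet1KO and at 86.3 CPM in the old WT set Old_WT_365. Rpl37 varied 29.1-fold and Rpl34 8.83-fold, and 10.8-fold and 6.44-fold without the 3 oocytes. The share of variance among oocytes that lay between sets had a median of 29.6% for the 30 members and 43.5% for the 6945 genes, and 39.7% and 46.2% without the 3 oocytes.

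**Figure D2:**
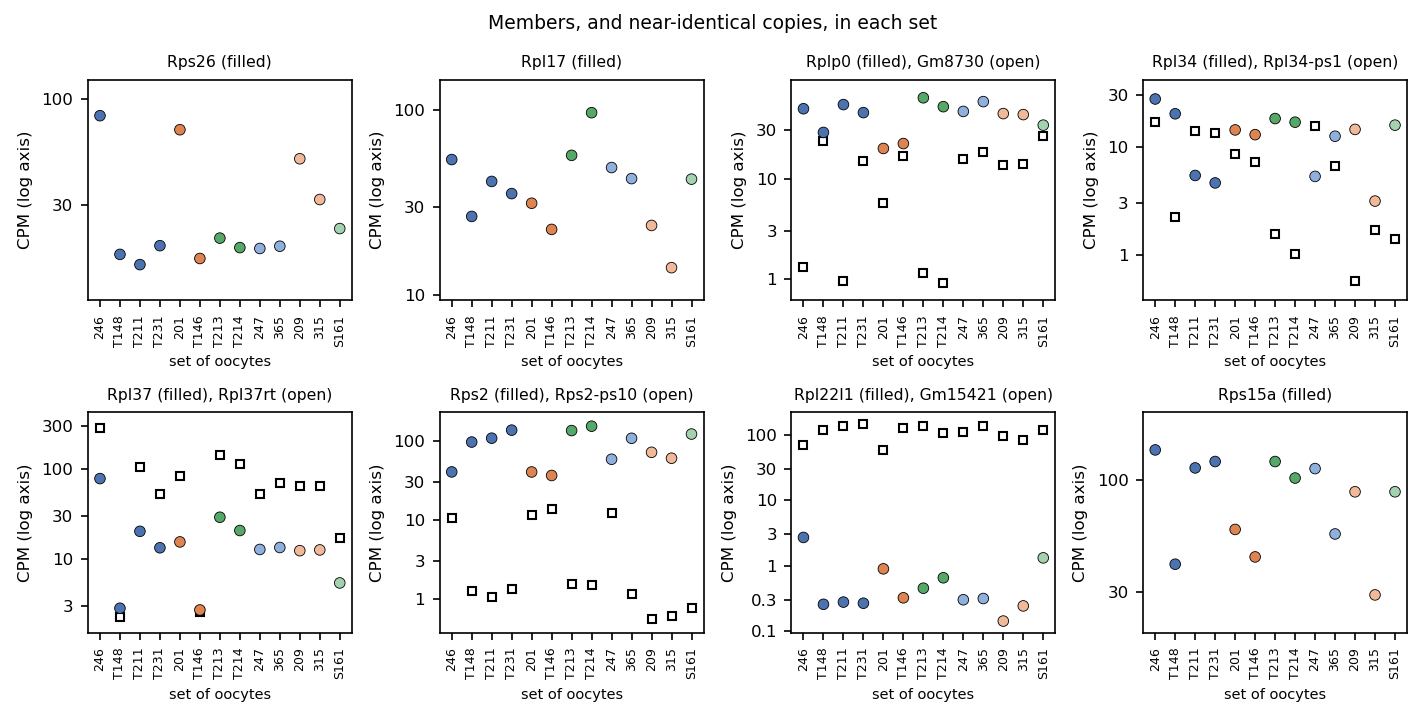
CPM of 8 members (filled circles, coloured by group: dark blue young WT, dark orange young Tet1KO, dark green young Tet2KO, and the pale shades for old) and of a near-identical copy where one is counted (open squares) in each of 13 sets, on log axes. Sets of 1 group differ for several members: Rpl34 is at 27.8 and 20.3 CPM in the young WT sets Young_WT__246 and T148 and at 5.44 and 4.64 CPM in T211 and T231.

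For several members, a near-identical copy also varied between sets. Rpl34 stood at 27.8, 20.3, 5.44 and 4.64 CPM in the young WT sets, where Rpl34-ps1 stood at 17, 2.22, 13.9 and 13.4 CPM. So T148 was high for the gene and low for the copy, and T211 and T231 the reverse. Rpl34-ps1 was at 1.55 and 1.03 CPM in the young Tet2KO sets T213 and T214 and at 0.569 to 1.70 CPM in the old Tet1KO and old Tet2KO sets, whereas Rpl34 was at 18.3 and 17 CPM in T213 and T214. Rpl37 and its copy Rpl37rt moved in the same direction: Rpl37 stood at 2.82 and 2.70 CPM in sets T148 and T146 and at 5.40 to 78.7 CPM in the others, and Rpl37rt at 2.27 and 2.55 CPM in T148 and T146 and at 17.2 to 288 CPM elsewhere. Rps2, a small subunit protein near the message entry, was lowest in sets Young_WT__246, Young_Tet1-/-_201, T146 and Old_WT_247 (40.4, 40.3, 36.4 and 58.3 CPM), the 4 sets in which Rps2-ps10 was highest (10.6, 11.7, 13.6 and 12.4 CPM). Gm8730, which differs from Rplp0 at 12 of 951 aligned bases, ranged from 0.933 CPM in T214 to 26.6 CPM in S161. Rpl22l1 did not exceed 2.70 CPM in any set, whereas Gm15421 stood at 58.3 to 147.9 CPM. Whether counts pass from a gene to its copy in some sets, or the sets differ in sequence, was not tested.

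Each gene was then compared between groups with edgeR's quasi-likelihood test on counts summed per set, with a term for the naming series (3-digit or lettered set names) and Benjamini-Hochberg adjustment over 14418 genes. A gene was called at an adjusted p under 0.05. Of the 90 members 82 passed the minimum of 1 CPM in at least 2 sets, 49 large and 33 small. The 8 others were Rpl3, Rpl3l, Rpl9 and 5 pseudogenes (Rpl32l, Rpl6l, Rps12l1, Rps3a2 and Rps3a3).

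Young Tet1KO was compared with young WT first. No member was called of 82, and 3 of 14418 genes were (0.0208%). The median log2 change of the members was -0.58, against 0.003 for all genes tested, with 73 of 82 below 0. Large and small subunit members had medians of -0.50 and -0.59. Without the 3 oocytes the median was -0.01, with 42 of 81 below 0, so the shift was not seen in the remaining 11 oocytes of set Young_WT__246 and the other sets. At an unadjusted p under 0.05 there were 15 members and 691 genes, and 2 members and 549 genes without the 3 oocytes. DESeq2 called 1 member (Rpl37) and 0.208% of genes. Leaving out set T148 also called Rpl37, and the share over all genes in that fit is not reported here.

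Rplp0 had the smallest p among members in that comparison. It stood at 49.2, 28.6, 54.1 and 45 CPM in the young WT sets and at 19.9 and 22.2 CPM in the young Tet1KO sets Young_Tet1-/-_201 and T146. Both knockout sets were below all 4 WT sets, yet the change of -1.04 (log2, SE 0.269) had an edgeR adjusted p of 0.967, and it was -0.96 without the 3 oocytes. The copy Gm8730 was at 1.34, 23.3, 0.971 and 14.8 CPM in the WT sets and at 5.76 and 16.9 CPM in Young_Tet1-/-_201 and T146. Rpl37 stood at 78.7, 2.82, 20.3 and 13.3 CPM in WT and at 15.5 and 2.70 CPM in the knockout, and its log2 change was -2.19 (SE 0.596, edgeR adjusted p = 0.967) with overlapping groups, and -1.52 without the 3 oocytes. In the other direction Rpl29 (0.41) and Rplp1 (0.26) had the smallest p, at edgeR adjusted p values of 0.973 each. In 11 members every Tet1KO set was below every WT set, where 6.96% of genes did the same: Rpl23, Rpl39l, Rpl6, Rpl7l1, Rplp0, Rps16, Rps2, Rps21, Rps24, Rps27a and Rps6. Without the 3 oocytes there were 8 such members (5.27% of genes). No member had every Tet1KO set above (4.33% of genes), and without the 3 oocytes 2 did, Rpl12 and Rpl39 (4.73%).

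Young Tet2KO against young WT gave no called member of 82 and 2 called genes (0.0139%). The members' median log2 change was 0.02, against -0.01 for all genes, and 0.12 without the 3 oocytes. At an unadjusted p under 0.05 there were 2 members and 835 genes, and DESeq2 called no member and 0.111% of genes. Rpl17, which lies at the exit of the peptide tunnel, stood at 53.7, 26.5, 41 and 35.2 CPM in WT and at 56.6 and 96.1 CPM in Tet2KO. The knockout sets were above all 4 WT sets, T213 by little, and the log2 change was 1.11 (SE 0.273, edgeR adjusted p = 0.822), or 1.18 without the 3 oocytes. Rpl13 followed, at 58.7, 27.1, 37.3 and 30.6 CPM in WT and 44.7 and 51.6 CPM in Tet2KO, with a log2 change of 0.55 (SE 0.201, edgeR adjusted p = 0.822). Rpl15 and Rpl23a had the smallest p among lower members, at log2 changes of -0.35 and -0.78 (edgeR adjusted p = 0.822 and 0.832). Every Tet2KO set lay above every WT set for Rpl17 and Rps9 (9.29% of genes), and for 11 members without the 3 oocytes (10.8% of genes). Every Tet2KO set lay below for 5 members (4.32% of genes), Rpl23a, Rpl39, Rps12 and Rps27a among them, and for 4 of 82 without the 3 oocytes (4.47%). Without the naming series term the median fell to -0.46.

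The knockouts were also compared with each other in young females. No member was called, nor any gene (0%), and there were 14 members and 1346 genes at an unadjusted p under 0.05. The members' median log2 change, Tet1KO against Tet2KO, was -0.45 (all genes -0.02), and -0.06 without the 3 oocytes, which enter through the naming series term. Rpl17 had a log2 change of -1.73 (SE 0.348), Rpl37 of -3.18 (SE 0.707) and Rplp0 of -1.40, each with an edgeR adjusted p of 0.483. Without the 3 oocytes Rpl17 had -1.47 and Rpl37 -2.65. DESeq2 called these 3 and 0.437% of genes. For Rpl17 the Tet1KO sets stood at 31.3 and 22.6 CPM and the Tet2KO sets at 56.6 and 96.1 CPM, without overlap. Both Tet1KO sets were below both Tet2KO sets in 21 members (26% of genes) and above in 8 (15.1%).

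**Figure D3:**
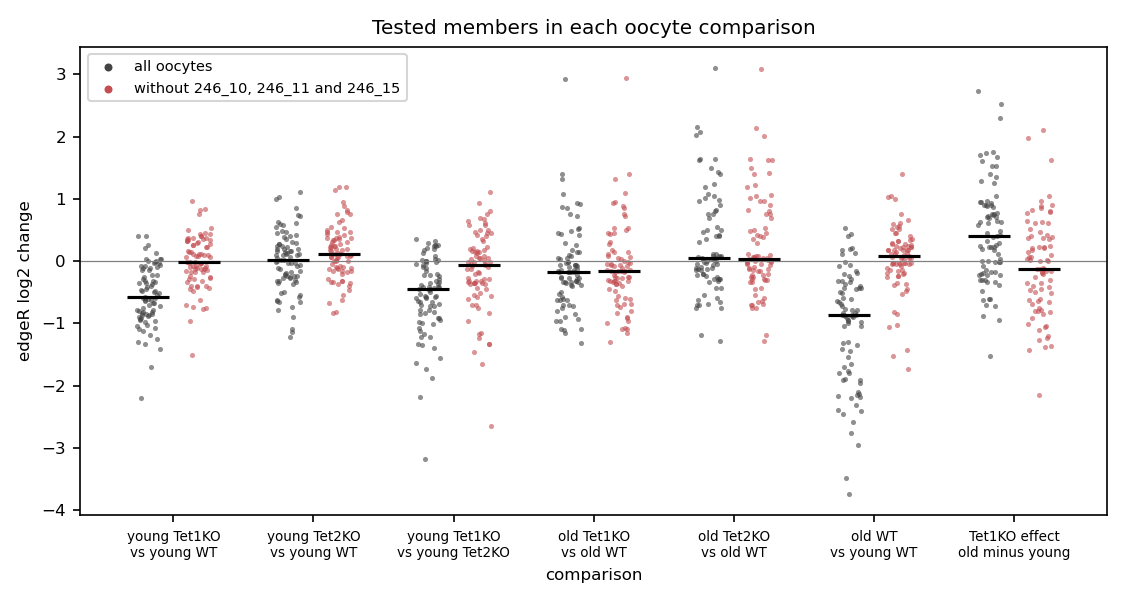
The edgeR log2 change of each tested member (points) in 7 comparisons, with all oocytes (grey) and without oocytes Young_WT__246_10, Young_WT__246_11 and Young_WT__246_15 (red); bars are medians. Medians of -0.58, -0.45 and -0.87 for young Tet1KO against young WT, young Tet1KO against young Tet2KO and old WT against young WT become -0.01, -0.06 and 0.08 without those oocytes.

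In old females, Tet1KO against WT gave no called member and 5 called genes (0.0347%). The median log2 change was -0.17 for members and -0.01 for all genes, and -0.16 without the 3 oocytes. At an unadjusted p under 0.05 there were 5 members and 1794 genes. Rps26 stood at 18.3 and 18.8 CPM in the old WT sets Old_WT_247 and Old_WT_365 and at 50.6 and 31.9 CPM in the old Tet1KO sets Old_Tet1-/-_209 and Old_Tet1-/-_315, a log2 change of 1.31 (SE 0.243, edgeR adjusted p = 0.131). Rpl29 stood at 0.328 and 0.262 CPM in old WT and 2.27 and 1.82 CPM in old Tet1KO, a log2 change of 2.93 (SE 0.634, edgeR adjusted p = 0.167). Both old Tet1KO sets were also above every other set for Rpl29, the next highest being 0.328 CPM in Old_WT_247. Rpl29 thus passed the minimum of 1 CPM only through the old Tet1KO sets, of which Old_Tet1-/-_315 is 1 oocyte. The change of Rpl29 here is therefore selected in part by that minimum and is a description only. Rpl17 (-1.11) and Rps24 (-1.10) had the smallest p among lower members, at edgeR adjusted p values of 0.240 and 0.371. DESeq2 called Rps26 and Rpl17, and 2.08% of genes. Both Tet1KO sets were below both WT sets in 29 members (29.1% of genes) and above in 7 (12.3%).

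Old Tet2KO rested on the single set S161, assumed to vary like the other sets. Its name is lettered and those of both old WT sets have 3 digits, and this comparison was fitted without the naming series term. No member was called and 2 genes were (0.0139%). There were 2 members and 267 genes at an unadjusted p under 0.05, and DESeq2 called no member and 0.0763% of genes. The median log2 change against old WT was 0.05 (all genes -0.01). Rpl7 stood at 3.27 CPM in S161 and 0.520 and 0.210 CPM in old WT (log2 3.10, SE 0.860, edgeR adjusted p = 1), and Rpl7l1 at 3.18 CPM against 0.930 and 1.47 CPM (log2 1.41, SE 0.577, edgeR adjusted p = 1). Rplp0 and Rplp2 had the smallest p among lower members, at log2 changes of -0.63 and -0.76. Macrophage and blood markers summed to 256.6 CPM in S161 and 13.3 and 15 CPM in old WT, and their part in these values was not tested. Without oocyte S161_6, an alternative added after its values were seen, Rpl7 stood at 1.01 CPM in S161 (log2 1.42, edgeR adjusted p = 1) and Rpl7l1 at 2.55 CPM (log2 1.10), so the value of Rpl7 rested mostly on that oocyte. The members' median without it was -0.28, with 61 of 81 below 0. With the naming series term, an alternative also added after the data were seen, no member and 1 gene was called, and the median was 1.13, with 28 members and 1272 genes at an unadjusted p under 0.05. That term is estimated in part from set Young_WT__246, and without its 3 oocytes no gene was called and the median was 0.23, with 11 members and 1261 genes at an unadjusted p under 0.05. The members' median against old WT thus ran from -0.28 to 1.13 over these fits.

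Old WT against young WT gave the only called member. Rps26 was lower in old WT by a log2 change of -2.16 (SE 0.263, edgeR adjusted p = 0.0224), as 1 of 6 called genes (0.0416%). It stood at 82.6, 17.1, 15.2 and 18.9 CPM in young WT and at 18.3 and 18.8 CPM in old WT. The old sets lay within the range of the young ones, and 3 of 4 young sets were at the old level or close to it. Both old WT sets carry 3-digit names, as does only Young_WT__246 among young WT sets, so with the naming series in the model the age difference leans on set Young_WT__246 and on the young Tet1KO set Young_Tet1-/-_201 (70.4 CPM). Of the 50-base words of Rps26 23.7% also occur in Med21, which stood at 119.6 to 236 CPM in the 13 sets. A fit of the 6 sets with 3-digit names alone, added after the data were seen, sets Young_WT__246 against both old WT sets and assumes that this lone set varies like the others (2 residual degrees of freedom). In it Rps26 had a log2 change of -2.21 (edgeR adjusted p = 0.0650) and was not called, and Rpl37 (-2.64), Rpl38 (-4.47), Rps27a (-3.69) and Rps29 (-2.76) were called as lower, 4 of 80 members against 39 of 13614 genes (0.286%). Without the 3 oocytes that fit called no member of 78 and 26 of 13511 genes, the members at an unadjusted p under 0.05 were 3, and Rps26 had -1.15 (edgeR adjusted p = 0.566). Rps26 was not called without the 3 oocytes (log2 -1.43, edgeR adjusted p = 0.167), without the naming series term, or when set Young_WT__246, Old_WT_247, Old_WT_365 or T213 was left out.

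Most other members had changes below 0 in this comparison. The median log2 change was -0.87 (all genes -0.002), with 74 of 82 below 0, and 0.08 without the 3 oocytes, with 34 of 81 below 0. At an unadjusted p under 0.05 there were 36 members and 1873 genes, and 4 members and 1667 genes without the 3 oocytes. DESeq2 called 7 members as lower (Rpl35, Rpl36, Rpl37, Rps26, Rps27a, Rps29 and Rps4x) and 2.18% of genes. Rpl24 had a log2 change of -2.41 (SE 0.525, edgeR adjusted p = 0.171): it stood at 4.76, 0.812, 0.797 and 0.875 CPM in young WT and 0.712 and 0.681 CPM in old WT, and its change was -0.81 without the 3 oocytes. It was the only member with every old set below every young set (6.66% of genes), and this held without the 3 oocytes (5.6% of genes). In the other direction, Rpl15 had a log2 change of 0.22 (edgeR adjusted p = 0.712). Every old WT set was above every young WT set for 2 members, Rpl29 among them (6.85% of genes), and for 21 of 82 members without the 3 oocytes, 11 large and 10 small (7.79% of genes). Among these were Rpl13, Rpl17 and Rpsa. The summed level of set Young_WT__246 falls from 2459 to 1189 CPM without the 3 oocytes, so the 4 young WT sets then stand at 1189, 1098, 1333 and 1294 CPM and the old WT sets at 1307 and 1608 CPM, with overlap.

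The Tet1KO change in old females was compared with that in young females in the same model. No member was called and no gene (0%). There were 8 members and 841 genes at an unadjusted p under 0.05, and DESeq2 called 1 member (Rps26) and 0.118% of genes. The members' median difference was 0.40 log2 (all genes 0.01), with 0.22 for large and 0.61 for small subunit members, and -0.12 without the 3 oocytes. Rps26 had a difference of 1.40 (SE 0.324) and Rps9, which lies near the message entry, one of 2.73 (SE 0.871), each with an edgeR adjusted p of 0.814, and without the 3 oocytes they had 0.96 and 2.11. Rps9 stood at 8.78, 1.97, 8.81 and 9.17 CPM in young WT, 5.22 and 1.83 CPM in young Tet1KO, 9.03 and 5.55 CPM in old WT and 24.2 and 10.3 CPM in old Tet1KO. Rpl12 (-1.53) and Rpl22 (-0.61) had the smallest p in the other direction, at edgeR adjusted p values of 0.816 and 0.819.

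Genes that make or regulate ribosomes were read from the same fits. None of the following was called by edgeR in any of the 7 comparisons. At an unadjusted p under 0.05 there were at most 1 of 3 further ribosomal proteins, Fau and Rack1 among them, 5 of 18 genes outside the ribosome whose messages are known for pyrimidine tracts, such as Eef1a1, Tpt1, Npm1 and Vim, and 5 of 26 ribosome biogenesis genes, such as Fbl and Nop56. There were at most 4 of 10 regulators of these messages, such as Larp1 and Mtor, 7 of 75 mitochondrial ribosomal proteins and 6 of 33 proteasome subunits. The highest counts of regulators and mitochondrial ribosomal proteins fell in old Tet1KO against old WT. Proteasome subunits had 6 both there and in young Tet1KO against young Tet2KO. The highest count of pyrimidine tract genes fell in young Tet1KO against young Tet2KO, and that of biogenesis genes in young Tet2KO against young WT. Counts over all genes at that p stand with each comparison above, and the lists were not tested against them. In old WT against young WT the median of the mitochondrial ribosomal proteins was -0.02 log2, of the biogenesis genes 0.16 and of the proteasome 0.20, beside -0.87 for the members. These medians became 0.24, 0.23, 0.31 and 0.08 without the 3 oocytes. The median of the 3 further ribosomal proteins was -0.65, and 0.17 without the 3 oocytes. Of 292 pseudogenes named after members 24 were tested and none was called, with a median of -0.47 in that comparison and 0.04 without the 3 oocytes. Mitochondrial ribosomal proteins summed to 2902, 3207 and 3287 CPM in the 3 oocytes of set Young_WT__246 against 1247 to 2159 CPM in the other 11. Ribosome biogenesis genes summed to 1431, 1546 and 1345 CPM against 789 to 1531 CPM, and so overlapped except for Young_WT__246_11. Proteasome subunits summed to 5379, 5500.2 and 5509 CPM against 2451 to 4436 CPM, and the genes with pyrimidine tracts to 2603, 2824 and 2673 CPM against 1183 to 2267 CPM, above all 11 in each case. The regulators of these messages summed to 322, 346 and 304 CPM against 339 to 513 CPM, so 2 of the 3 lay below all 11. Several lists other than the members were thus high in the 3 oocytes.

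The germ cells carried far more of these messages. In the authors' FPKM, a level per gene length and library size, the median member stood at 1239 in the WT and 1160 in the Tet2KO library. Multiplied by gene length, the members made up 8.79% and 8.34% of the library, 5.13% and 4.91% in the large and 3.66% and 3.43% in the small subunit. The oocyte share in young WT was 0.123% of counts. The tables were scaled separately and, per the labels, the libraries were prepared by different protocols, so these shares stand side by side and were not tested. In germ cells, a pooled sample, fewer cells of a type and less RNA per cell cannot be told apart. On the CPM scale the ratio of germ cells to oocytes had a median of 91.5 over 85 members and exceeded 10 for 81 of them. It fell below 1 for Rps27l alone (0.435).

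Which members were abundant also differed. Over 86 members the Spearman correlation of oocyte RPKM with germ cell FPKM was 0.135, a description across genes that share libraries and depend on 2 sets of gene lengths. The 5 highest members held 46.6% of the members' per-length total in young WT oocytes and 15.6% in WT germ cells. Large subunit members held 43.5% in oocytes, 62.5% without Rps27l, and 58% in germ cells. Rps27l held 30.4% in oocytes and 0.203% in germ cells, a 150.1-fold difference of shares. The next largest oocyte excesses were Rps15a (1.47% and 0.0498%), Rpl39l (1.05% and 0.0487%), Rpl10l (0.281% and 0.0285%) and Rpl15 (3.19% and 0.582%). The reverse held for Rpl3 (0.00548% and 1.10%), Rpl9 (0.00592% and 1.10%), Rpl12 (0.0181% and 1.93%), Rpl29 (0.00988% and 0.878%) and Rpl7 (0.0255% and 1.34%). Without the 3 oocytes of set Young_WT__246 the oocyte shares were 33.8% for Rps27l, 0.00698% for Rpl3 and 0.00171% for Rpl9, so Rpl9 then lay lower than Rpl3. Gene lengths matter for some of these: Rps15a is 6270 bases in the oocyte tables and 5158 in the germ cell table, and Rpl34 2643 and 500. The 19 members with at least 80% of their 50-base words in no other gene had a median ratio of germ cells to oocytes of 93.5, and the 23 members under 40% one of 208.1.

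**Figure D4:**
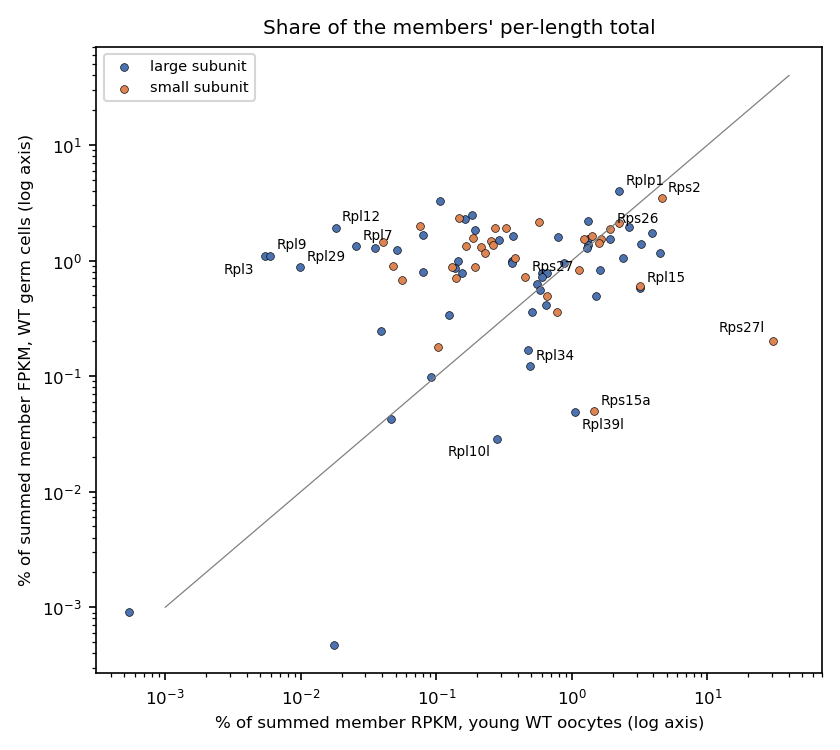
Share of the members' summed per-length level in WT germ cells (FPKM) against young WT oocytes (RPKM) for 86 members, log axes, coloured by subunit, with the line of equal shares. Rps27l lies far to the right at 30.4% and 0.203%, and Rpl3, Rpl9, Rpl29, Rpl12 and Rpl7 lie above the line at the left.

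In germ cells, Tet2KO was set beside WT with 1 library each, so no test was made. Of 85 members with at least 1 FPKM in either library, 2 were more than 1.5-fold higher in Tet2KO, where 3.05% of 12577 genes were, and none was more than 1.5-fold lower, where 12.9% of genes were. The median log2 ratio was -0.09 for members and -0.07 for all genes, with 63 of 85 members below 0. Large subunit members had a median of -0.09 and small subunit members one of -0.07. Both members past 1.5-fold were of the large subunit: Rpl34 at 140.0 FPKM in WT and 1147 FPKM in Tet2KO (log2 3.03) and Rpl30 at 112 and 275 FPKM (log2 1.29). The authors' deposited table gives Rpl30 a false discovery rate of 1.03e-144 and Rpl34 one of 0, from a comparison of the reads of 2 libraries, which compares those libraries and not the genotypes.

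For both genes the near-identical copy moved the other way. Rpl34-ps1 was at 1174 FPKM in WT and 74.3 FPKM in Tet2KO (log2 -3.98), and Rpl34 and Rpl34-ps1 together were at 1314 and 1221 FPKM (log2 -0.10). Gm12191 was at 780.3 and 600.4 FPKM, and with Rpl30 at 892.7 and 875.6 FPKM (log2 -0.03). Rpl37 was at 559.6 and 446 FPKM (log2 -0.33) and Rpl37rt at 177 and 244 FPKM, and their sum had a log2 ratio of -0.09. For Rpl34, Rpl30 and Rpl37 the sums of gene and copy lay near the median of all members, while each part differed. For Rpl22l1 the sum with Gm15421 had a log2 ratio of -0.30, close to that of Rpl22l1 alone. Whether the libraries differ in sequence or in how reads were assigned was not tested. The young Tet2KO oocyte sets also had Rpl34-ps1 at 1.55 and 1.03 CPM, but 2.22 CPM in the young WT set T148 was close to these.

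**Figure D5:**
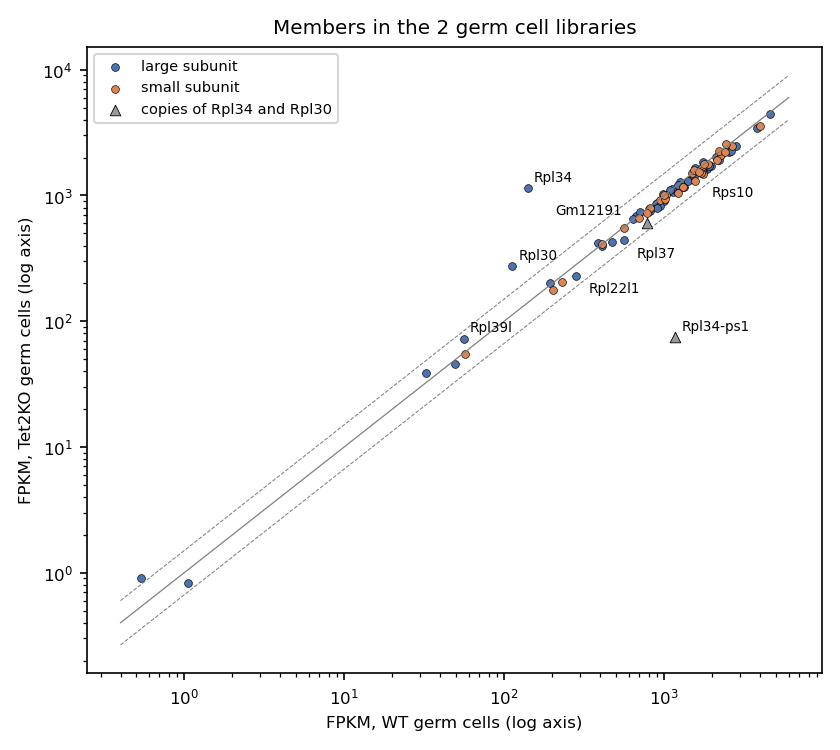
FPKM in Tet2KO against WT germ cells (1 library each, log axes) for 86 members by subunit, with Rpl34-ps1 and Gm12191 as triangles, the line of equal values and dashed lines at 1.5-fold. Rpl34 and Rpl30 lie above the upper dashed line, and Rpl34-ps1 lies far below the lower one.

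Among the remaining members Rpl39l was the third highest ratio (55.7 and 72.8 FPKM, log2 0.39), and Rpl22l1 (281 and 227 FPKM, log2 -0.31) and Rps10 (1556 and 1315 FPKM, log2 -0.24) were with Rpl37 the 3 lowest. The other named markers were nearly level: Rplp0 had a log2 ratio of 0.001, Rps26 of -0.16 and Rpl17 of -0.18. Fau and Rack1, ribosomal proteins outside the symbol rule, had log2 ratios of -0.05 and -0.07. Of 77 mitochondrial ribosomal proteins 57 were below 0 (median -0.10), whereas 23 of 26 ribosome biogenesis genes were above 0 (median 0.17). Of 7 cumulus and granulosa markers with at least 1 FPKM 5 were below 0 (median log2 ratio -1.31), and all 7 macrophage and blood markers were (median -0.35). Among somatic markers, Gata4 was at 18.5 and 6.38 FPKM and Wt1 at 21.7 and 9.45 FPKM, lower in Tet2KO. Germ cell markers went in both directions: Dazl was at 359.3 and 367 FPKM and Pou5f1 at 472.7 and 537.9 FPKM, whereas Stra8 was at 138 and 71.6, Sycp3 at 41.4 and 22.2 and Ddx4 at 128.4 and 93.7 FPKM. The part of these markers in the members' ratios was not tested.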

How the data were processed

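Single-oocyte and germ cell RNA was analysed from the authors' processed tables; no reads were aligned. The authors deposited unnormalised gene counts for oocytes, made with featureCounts 1.6.2 on GENCODE mouse release 17 at mapping quality of at least 30. Per the file headers, fragments were counted without strand, and reads of multiple alignments or overlapping genes were allowed if they met that quality. HISAT2, SAMtools and build mm10 are named in the submitters' processing notes. For germ cells the authors deposited FPKM, with their log2 ratio and FDR q-value; the aligner and build of that table are not given in the sources used here.

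Counts were summed over the oocytes of a set (13 sets, 94 oocytes). CPM and RPKM were computed from counts, library totals and the tables' gene lengths. Genes with at least 1 CPM in at least 2 sets were fitted in one model of all sets with a naming series term (edgeR 4.0.16, TMM, glmQLFit and glmQLFTest; R 4.3.3), checked on simulated data; SE was taken as the absolute log2 change over the root of F. DESeq2 1.42.0 and limma 3.58.1 were alternatives. Old Tet2KO was fitted without the series term. No 2 oocyte columns were identical. Total counts of at least 2354503 per oocyte leave members under 1 CPM with few counts each.

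In total 39 count columns match no labelled sample and were not used. Another 39 samples have labels that contradict each other or repeat a title, and were left unassigned. The 50-base words and coding alignments (Biopython 1.88, Python 3.11.15) used GENCODE release 21 transcripts, and start sites RefSeq windows on GRCm38.p6. Protein sequences were not used here.

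Members and lists were chosen with earlier results of these data known. Members named are the markers Rps26, Rpl17, Rplp0 and Rpl34, called members, the 2 of smallest p in each direction per comparison, the 5 highest and 3 lowest by RPKM, 7 paralog pairs, the 3 largest germ cell ratios each way and the 5 most different shares each way; a few are not reported here, and others are said to be chosen after their values were seen. Copies were those holding at least 10% of a member's words.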

Additional observations from a re-analysis of the deposited data

Results flagged for a closer look

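One of the 4 young WT sets stood far from the other 3 for 17 of the 38 named members, by the gap to its neighbour relative to the range of the group. The check covered 51 groups of sets or oocytes, and by chance it flags about 1 in 20 groups of independent values. The 38 members were named partly by small p in comparisons with young WT and share libraries, so that rate does not apply to them. Set Young_WT__246 was the high one in 15 of the 17 members. Among small subunit members it stood at 82.6 CPM for Rps26, 20.5 CPM for Rps27 and 17 CPM for Rps24. Among large subunit members the stalk protein Rplp2 stood at 110.0 CPM, Rpl32 at 85.9 CPM, Rpl36al at 22.9 CPM, Rpl39 at 19.5 CPM, Rpl30 at 9.02 CPM and Rpl36a at 8.33 CPM. Lower levels with the same pattern were those of Rpl24 (4.76 CPM), Rpl23a (4.17 CPM), Rpl22l1 (2.70 CPM), Rpl12 (1.61 CPM), Rpl9 (0.712 CPM) and Rpl3l (0.0403 CPM). The set holds the 3 oocytes whose summed member level was 3795 to 7488 CPM, and these members share those libraries. Rpl3l is an exception, with 0 counts in the 3 oocytes and 3 in the other 11 of the set. The same check was not run over all genes.

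Set T148 was the low one for Rps9 (1.97 CPM) and for Rpl3 (0.0855 CPM, from few counts). Oocyte S161_6 stood apart within the old Tet2KO set, with a summed member level of 2364 CPM. Of 38 members checked for Tet1KO sets that lay on opposite sides of WT in young and old females, 0 met that condition.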

How the results depend on the processing

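Calls moved with the tool and the filter. DESeq2 called 1 member in young Tet1KO against young WT, 3 in young Tet1KO against young Tet2KO, 2 in old Tet1KO against old WT, 7 in old WT against young WT and 1 in the difference of the Tet1KO changes. With no filter on low counts the same comparisons gave 3, 8, 3, 22 and 2 called members of 90, and young Tet2KO against young WT gave 1, beside 0.752%, 1.6%, 1.68%, 2.00%, 0.594% and 0.675% of 33500 genes. Old WT against young WT gave 0 without the naming series term and 0 without oocytes Young_WT__246_10, Young_WT__246_11 and Young_WT__246_15. In the 6 sets with 3-digit names it gave 4, and 0 without those oocytes, with a median of 0.15.

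Median log2 changes without those 3 oocytes were -0.014 for young Tet1KO against young WT, 0.075 for old WT against young WT and -0.12 for the difference of the Tet1KO changes. Without the naming series term they were -0.46 for young Tet2KO against young WT, 0.056 for young Tet1KO against young Tet2KO and -0.25 for old WT against young WT. With that term old Tet2KO against old WT had a median of 1.13, and Rplp2 was 0.35 there against -0.76.

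With 1 set left out at a time, young Tet1KO against young WT gave 0 to 1 called members (1 without T148) and medians from -1.13 (without T146) to -0.073 (without Young_Tet1-/-_201). Young Tet1KO against young Tet2KO gave 0 to 1 (1 without T148) and medians from -1.35 (without T146) to -0.19. The shares over all genes called without T148 are not reported here. Old WT against young WT gave 0 to 7 calls (7 of 82 without T146, beside 40 of 14343 genes or 0.279%) and medians from -1.19 to -0.059 (without Young_WT__246), and the difference of the Tet1KO changes medians from -0.0066 to 1.04 (without T146). In young Tet1KO against young Tet2KO, Rpl15 ranged from -0.12 (without T146) to 0.30 and was -0.05 without T214, against 0.13 with all sets. The cause was not tested. Of 530 values of named members under alternatives, 502 kept their direction and their side of the threshold.

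As a share of summed RPKM in place of counts, the members' level was 0.223% in young WT, 0.207% in young Tet1KO, 0.252% in young Tet2KO, 0.275% in old WT, 0.225% in old Tet1KO and 0.229% in old Tet2KO. Without the 4 members of highest count it was 0.0718%, 0.0745%, 0.0861%, 0.0901%, 0.0708% and 0.0709% of counts. Rps27l held 31.5% of the members' summed RPKM in young WT and 24.4% with GENCODE coding lengths. Coding lengths, the summed level without the 3 oocytes the fits without S161_6, of the 3-digit sets and of old Tet2KO with the series term were chosen after seeing the data. The alternative with RefSeq protein lengths was not run. No paired analysis was possible because the sets of different groups share no number. In germ cells 2 members were past the fold under a 2-fold limit, a minimum of 10 FPKM and a pseudocount of 1 alike.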

Other observations

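Genes outside the symbol rule were ranked by how closely their level followed the members from oocyte to oocyte. Each of 6915 further genes with a mean of at least 10 CPM was correlated with the members' summed level over 94 oocytes, on log2 CPM centred within sets. The 8 highest were Snrpg and Snrpd1 (core proteins of splicing particles), Eif2s2 (the beta subunit of initiation factor eIF2), Tbca (a tubulin cofactor), Fau (a ubiquitin-like protein fused to a small subunit protein), Polr2i (a subunit of RNA polymerase II), Uqcrh (a subunit of respiratory complex III) and Sec62 (a protein of the translocon). Pearson's r was 0.906 for Snrpg, 0.904 for Eif2s2, 0.900 for Tbca, 0.893 for Fau, 0.891 for Snrpd1, 0.890 for Polr2i and Uqcrh each and 0.881 for Sec62. Over the 91 oocytes without Young_WT__246_10, Young_WT__246_11 and Young_WT__246_15 it was 0.820, 0.797, 0.757, 0.740, 0.763, 0.659 for Polr2i, 0.709 for Uqcrh and 0.728 for Sec62. Over the 91, Cox8a, Rbx1, Hspe1 and Gng5 entered the first 8 and Fau, Polr2i, Uqcrh and Sec62 left them, so the ranking depends on the 3 oocytes. The median of the members themselves was 0.788 (0.594 over 91 oocytes) and that of the further genes -0.0881 (-0.0174). The members make up the summed level and the further genes do not, so these medians are not a like comparison. All these points share libraries and depth, so the values are a description. In those 3 oocytes Snrpg averaged 751 CPM against 188 CPM in the other 91, Eif2s2 2454 against 454 CPM and Polr2i 169 against 17.1 CPM.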
